A study of Rattus norvegicus with 6 samples.

Results

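The genes described here encode subunits of potassium channels and of voltage-gated calcium channels. They are the rows of the deposited expression table whose gene symbol starts with Kcn or Cacn followed by a lower-case letter, 105 of 20675 genes, of which 82 are potassium and 23 calcium channel genes. They were measured by RNA sequencing in primary rat cells of the temporomandibular joint (TMJ) disc, the fibrous cushion of the jaw joint. One group, labelled GSK101, was treated for 24 h with GSK101, a compound that opens TRPV4, a cation channel that passes calcium. The other, labelled Ctrl, received the solvent DMSO over the same 24 h. Each group had 3 libraries. The labels name no rat strain, age, sex or agonist dose, and do not say whether replicates are separate animals, cultures or wells, so p-values measure the spread between these libraries, which may be technical.

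Potassium channels let potassium leave the cell and hold the membrane voltage negative, and voltage-gated calcium channels open when that voltage becomes less negative and let calcium in. Both kinds are built from pore-forming subunits and from auxiliary subunits that set how many channels reach the surface and when they open. In cells that are not electrically excitable, such as fibroblasts and chondrocytes, potassium channels are known for setting the driving force for calcium entry through other channels, TRPV4 among them, and for taking part in volume control and proliferation.

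Most of these genes were barely transcribed in disc cells. A gene was tested if it reached 0.5 RPKM (a read count corrected for gene length and library size) in at least 3 of the 6 libraries, and 19 of the 105 channel genes did: 11 of 82 potassium and 8 of 23 calcium channel genes. Over all genes, 12801 of 20675 were tested. Averaged over the 6 libraries, 14 channel genes were at 1 RPKM or above and 4 at 5 or above, whereas 64 lay under 0.1. In 22 genes no library held more than 3 reads. Libraries held 43061102 to 45705238 counted reads.

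**Figure D1:**
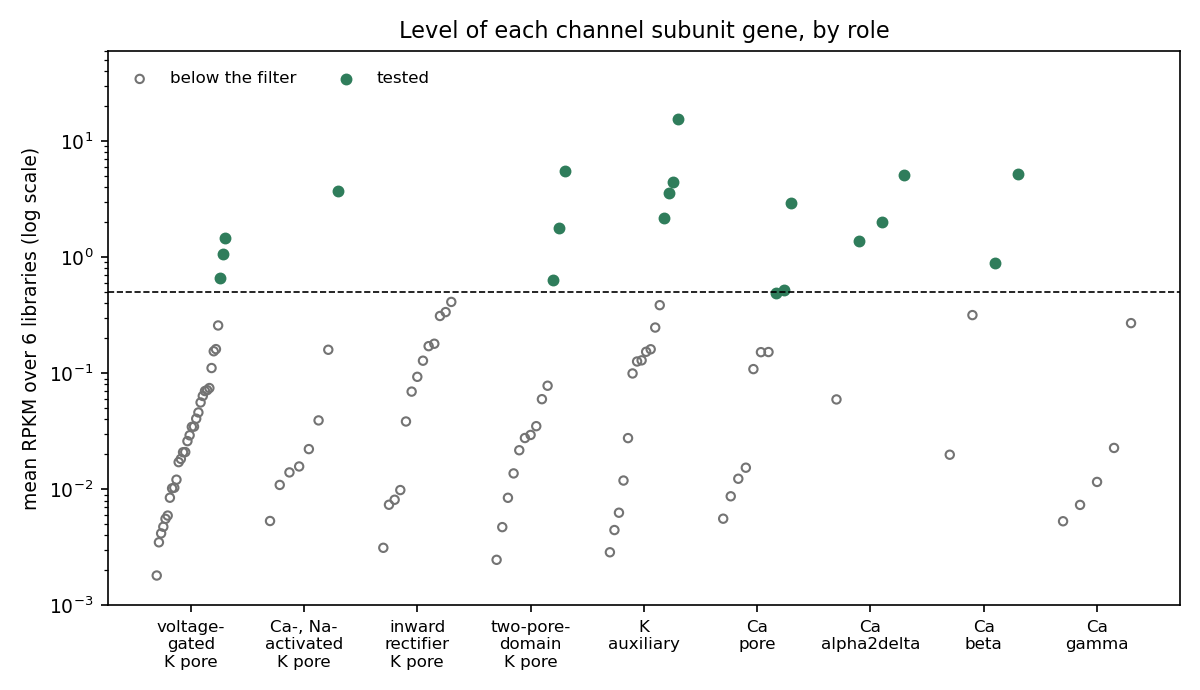
Mean RPKM over the 6 libraries (log scale) of each of the 105 channel subunit genes, 1 point a gene, ordered by level within its role; filled points were tested, open points fell below the filter, and the dashed line marks 0.5 RPKM. No inward rectifier and no calcium gamma subunit gene was tested, and the highest point is an auxiliary potassium channel subunit, Kcnmb1.

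At the edge of the filter, Cacna1a and Cacna1g reached 0.5 RPKM in exactly 3 libraries and Kcnk6 in 4, while Kcnj14, Kcnj2, Kcnj9 and Kcnmb4 reached it in 1 library each and were left out. The 3 libraries of Cacna1g were the 3 GSK101 libraries, so this gene entered the test through the group in which it was high, and counts are given with and without it.

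By level in the controls, Kcnmb1 stood first at 20.1 RPKM (lowest 19.5, highest 20.8) and Cacnb3 second at 6.05, and neither overlapped the gene ranked after it. Kcnk2 at 4.87, Cacna2d1 at 4.44, Kcnip3 at 4.21, Kcne4 at 3.84, Kcnn4 at 2.89 and Cacna1c at 2.83 formed a run in which each gene's control values overlapped those of the next. Cacna2d2 and Kcnab2 followed at 2.18 and 1.99, then Kcnk12, Kcnd3 and Cacna2d4 at 1.79, 1.72 and 1.41, again with neighbours overlapping inside each of these sets. Kcnd1, Cacnb2, Kcnk6 and Kcnq5 lay between 1.09 and 0.595, Cacna1a at 0.505 and Cacna1g at 0.330. These levels are per deposited gene length, so the order between genes rests on those lengths, which were not tested.

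After 24 h with GSK101, 3 of the 19 tested channel genes were higher (Kcnn4, Cacna1g and Cacna2d1) and 3 were lower (Kcnmb1, Cacnb3 and Kcnd3), by limma on log2(RPKM + 0.5) with an adjusted p under 0.05 over all genes. Among all 12801 tested genes 31.9% passed, 20.1% higher and 11.9% lower, against 31.6% of the channel genes, 15.8% in each direction, so the share of channel genes that changed was close to that of the table. Without Cacna1g the counts were 2 higher and 3 lower of 18. The median log2 fold change was -0.02 in the 19 channel genes and 0.03 in all tested genes. Control and GSK101 values were fully separate for 8 of the 19 channel genes (42.1%) and for 47.3% of all tested genes. Of all calls 62.9% were higher in the main test, 72.4% as TPM, 52.5% with median-ratio scaling and 48.1% with quantile normalization. All 6 channel genes kept their call under these scalings.

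**Figure D2:**
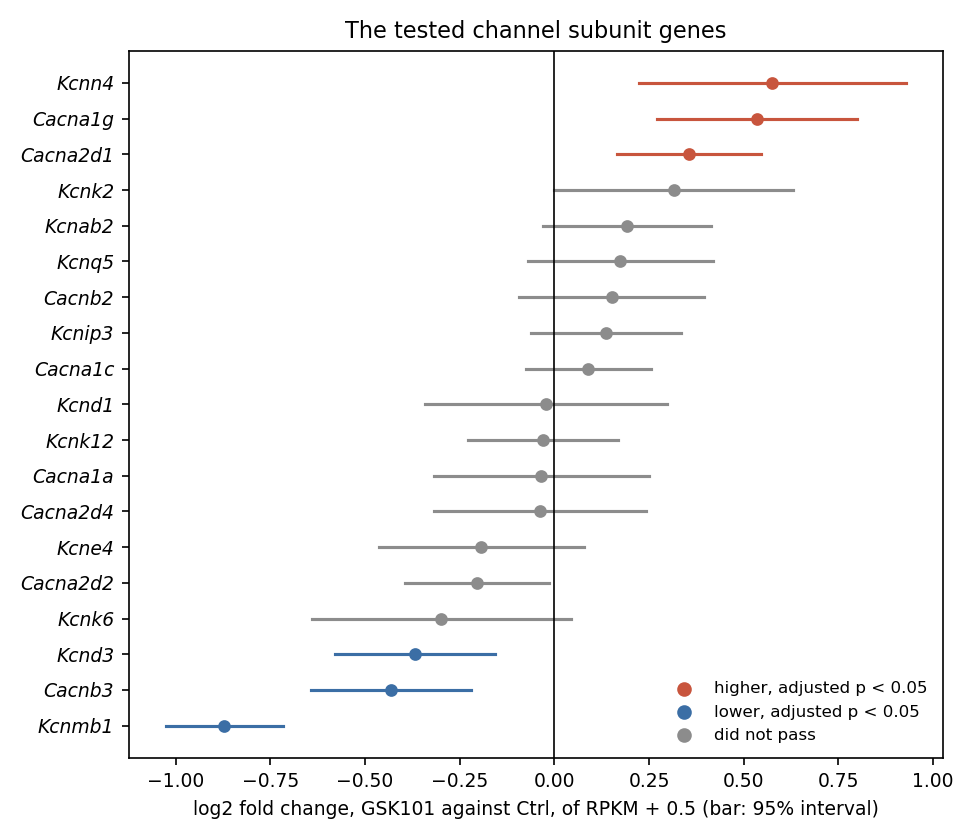
Log2 fold change on the log2(RPKM + 0.5) scale, GSK101 against Ctrl, of the 19 tested channel subunit genes, with the 95% interval from limma as a bar; red genes were higher and blue genes lower at an adjusted p under 0.05, and grey genes did not pass. Changes ran from -0.87 for Kcnmb1 to 0.58 for Kcnn4.

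Among the 11 tested potassium channel genes the largest change was a fall of Kcnmb1. It encodes the beta1 auxiliary subunit of the large-conductance calcium-activated potassium (BK) channel and makes that channel more sensitive to calcium, above all in smooth muscle. The gene lies on the plus strand of chromosome 10 from 18906010 to 18919639 (Rnor_6.0). The control libraries held 20.8, 19.5 and 20.1 RPKM and the GSK101 libraries 10.5, 10.05 and 11.9. All GSK101 values were far below all control values. Reads numbered 1798 to 1988 in the controls and 954 to 1070 in the GSK101 libraries. The means were 20.1 ± 0.62 and 10.8 ± 0.94 (SD, n = 3), 1.86-fold lower. In limma the log2 change was -0.87, with an SE of 0.07 and an adjusted p of 0.000168. Kcnma1, which encodes the pore-forming subunit with which this auxiliary subunit assembles, was at 0.009, 0 and 0.029 RPKM in the controls and 0.019, 0.028 and 0.010 with GSK101, on 0 to 6 reads per library. No difference in Kcnma1 was detectable at this depth (exact two-sided permutation p = 0.6). Whether the gene model of Kcnma1 in the file covers the transcripts these cells make was not tested, so the low value is that of this gene model. The other beta subunits of this channel, Kcnmb2, Kcnmb3 and Kcnmb4, were below the filter, with Kcnmb4 the highest at 0.396 ± 0.132 RPKM against 0.375 ± 0.057 after GSK101 (SD, n = 3).

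Most tested markers of smooth muscle and pericytes fell as well. Of 8 tested markers 6 were lower and none higher in the same limma test, against 11.9% lower of all tested genes. The summed level of the 9 listed was 5915 to 6144 RPKM in the controls and 3375 to 3696 with GSK101. Most of that sum was the single gene Acta2, at 4946 RPKM in the controls and 2734 with GSK101. Acta2, smooth muscle alpha actin, fell by 0.86 and Myh11, the smooth muscle myosin heavy chain, by 0.63 on the log2 scale, beside -0.87 for Kcnmb1. Cspg4 and Des did not pass, at 0.20 and 0.26, and Rgs5, a pericyte marker, was at 0.129 RPKM in the controls, below the filter. Of 5 tested fibroblast and disc cell markers 4 were called higher and none lower. Dcn, Pdgfra, Lum and Fn1 rose by 0.41, 0.43, 0.54 and 0.30 on the log2 scale. Col1a1, the most abundant of the 5, went the other way, at -0.22 (interval -0.40 to -0.04), but did not pass (adjusted p = 0.0652, limma). The summed level of this list overlapped between the groups, at 2653 to 3055 RPKM in the controls and 2511 to 3028 with GSK101. In bulk RNA, fewer cells of a type and less RNA per cell cannot be told apart, and the part of either marker list in the fall of Kcnmb1 was not tested. Kcnj8 and Abcc9, which encode the 2 subunits of the ATP-sensitive potassium channel typical of pericytes, were both near 0, at a mean of 0.038 RPKM over the 6 libraries for Kcnj8 and 0.130 in the controls for Abcc9.

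**Figure D3:**
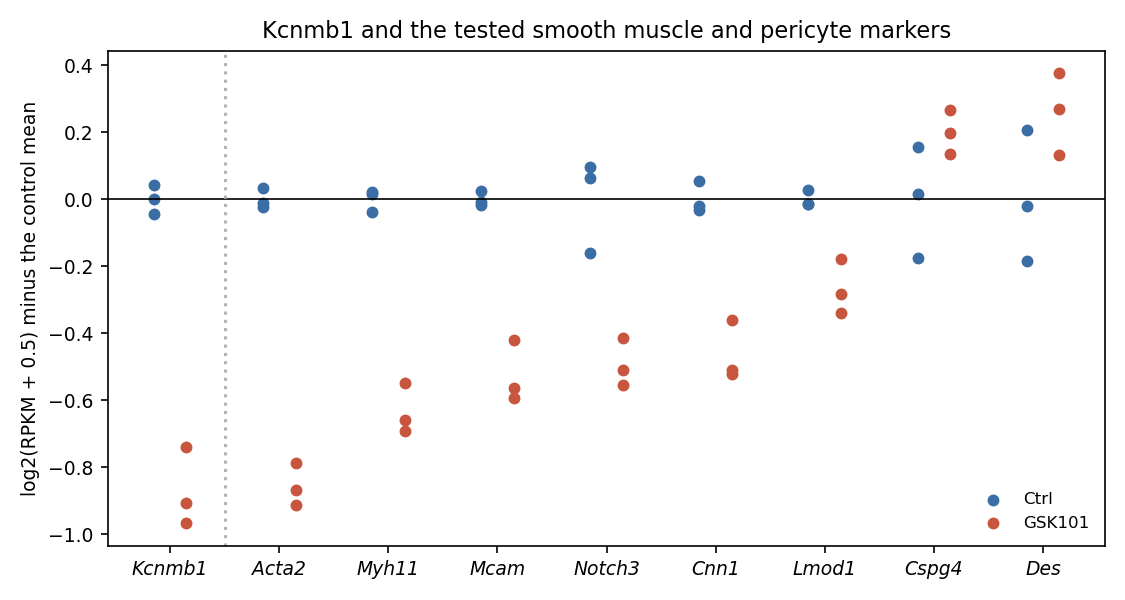
Difference of log2(RPKM + 0.5) from the control mean in each library, for Kcnmb1 and, right of the dotted line, the 8 tested smooth muscle and pericyte markers; blue points are Ctrl and red points GSK101 libraries. Kcnmb1 lay 0.74 to 0.97 below the control mean in the GSK101 libraries and Acta2 0.79 to 0.91 below it, while Cspg4 and Des lay above it.

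The stretch around a gene's start differs in composition between the channel genes that changed. RefSeq windows from 250 bases before to 50 after the start (build GRCr8) were found for 13 of the 19 tested channel genes and for 4 of the 6 that changed. Shown are Kcnmb1 and Cacnb3, the most abundant of the channel genes that fell, and the 1 gene with a window among those that rose, Cacna2d1, the most upstream of its 3 windows. All are written 5′ to 3′ on the gene's strand. Capitals mark GGGCGG on either strand, the core of the GC box bound by Sp/KLF factors, with overlapping matches counted each.
Kcnmb1, chr10:19061849-19062148, plus strand: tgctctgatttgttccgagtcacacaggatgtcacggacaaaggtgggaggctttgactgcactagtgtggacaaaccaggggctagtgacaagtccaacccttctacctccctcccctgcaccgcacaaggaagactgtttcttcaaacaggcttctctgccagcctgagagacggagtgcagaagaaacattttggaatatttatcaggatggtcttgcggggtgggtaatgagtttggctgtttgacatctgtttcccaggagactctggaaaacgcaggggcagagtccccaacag
Cacnb3, chr7:131666301-131666600, plus strand: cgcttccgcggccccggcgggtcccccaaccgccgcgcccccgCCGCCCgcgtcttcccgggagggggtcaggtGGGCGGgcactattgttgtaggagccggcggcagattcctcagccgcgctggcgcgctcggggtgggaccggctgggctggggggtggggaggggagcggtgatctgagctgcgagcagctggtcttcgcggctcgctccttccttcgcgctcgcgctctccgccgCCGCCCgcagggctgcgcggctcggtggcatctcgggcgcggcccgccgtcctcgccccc
Cacna2d1, chr4:20330098-20330397, minus strand: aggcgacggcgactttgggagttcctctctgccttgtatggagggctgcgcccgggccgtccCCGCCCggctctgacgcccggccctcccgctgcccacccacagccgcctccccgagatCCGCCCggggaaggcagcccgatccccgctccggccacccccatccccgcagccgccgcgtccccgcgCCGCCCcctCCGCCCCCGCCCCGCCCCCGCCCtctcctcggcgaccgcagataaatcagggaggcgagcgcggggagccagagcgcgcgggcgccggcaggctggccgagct
The Kcnmb1 window held no match and 51.7% G and C, the same as the median of all 33469 windows. The Cacnb3 window held 3 matches at 77.7% G and C and the Cacna2d1 window 7 at 78.3%, so a gene that fell and a gene that rose both had matches. Kcnd3, not shown, held 1 at 77.7%. Of all windows 33.1% held at least 1 match, and 9 of the 13 windows of tested channel genes did. The AP-1 motif TGANTCA, present in 7.33% of all windows, and the CArG box of serum response factor, present in 1.64%, were in none of the 13 on either strand. A match is a description of these letters only.

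Kcnn4 encodes the intermediate-conductance calcium-activated potassium channel, which opens through calmodulin when intracellular calcium rises and is known from lymphocytes, red cells and proliferating fibroblasts. It lies on chromosome 1 from 81230612 to 81245996. The controls held 3.55, 2.996 and 2.13 RPKM and the GSK101 libraries 4.65, 4.80 and 4.03. The lowest GSK101 library was above the highest control, and the controls were spread more widely. Kcnn4 rose 1.55-fold, from 2.89 ± 0.72 to 4.49 ± 0.41 (SD, n = 3). In limma the log2 change was 0.58, with an SE of 0.15 and an adjusted p of 0.0229. The call did not hold without Ctrl replicate 2 (adjusted p = 0.0509), GSK101 replicate 1 (0.0686) or GSK101 replicate 2 (0.0714), nor without a filter (0.0651), in a range of 0.00203 to 0.0714 over the alternatives. Of 3 tested macrophage and leukocyte markers Cd14 rose and none fell, with a summed level of the 6 listed of 8.78 to 12.5 RPKM in the controls and 9.07 to 12.9 with GSK101. Ptprc, the pan-leukocyte marker, was at 0.493 and 0.419. All 5 proliferation markers rose, among them Mki67 2.21-fold, against 20.1% higher of all tested genes. The part of either marker list in the rise of Kcnn4 was not tested.

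The other calcium- or sodium-activated potassium channel genes were below the filter. Kcnn1, a small-conductance channel gene, averaged 0.159 RPKM over the 6 libraries, and Kcnt1, Kcnt2, Kcnma1, Kcnn3, Kcnn2 and Kcnu1 lay under 0.1.

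Among pore-forming voltage-gated potassium channel genes, 3 of 32 were tested. Kcnd3, which encodes a pore subunit of fast inactivating (A-type) channels, fell. The controls held 1.69, 1.59 and 1.88 RPKM and the GSK101 libraries 1.16, 1.24 and 1.26, with no overlap and a narrower spread with GSK101. The means were 1.72 ± 0.15 and 1.22 ± 0.05 (SD, n = 3), 1.41-fold lower. In limma the log2 change was -0.37, with an SE of 0.09 and an adjusted p of 0.0178. Without Ctrl replicate 3 or GSK101 replicate 1 it did not pass (adjusted p = 0.0546 and 0.0618, in a range of 0.000589 to 0.0618). The gene lies on chromosome 2 from 207923775 to 208140727. Its relative Kcnd1 did not pass, with a log2 fold change of -0.02 and a 95% interval from -0.34 to 0.30. The difference between the changes of both genes was not tested. Kcnq5, a gene of the slowly activating M-type channels, did not pass either (0.17, interval -0.07 to 0.42), although its GSK101 values of 0.695 to 0.789 lay above the control values of 0.560 to 0.615.

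Auxiliary subunits of voltage-gated potassium channels did not pass the test. Kcnip3, a calcium-binding protein that partners A-type channels and also acts as a transcriptional repressor, was at 4.21 ± 0.31 and 4.68 ± 0.46 RPKM (SD, n = 3). Kcne4, a single-span subunit that inhibits several voltage-gated channels, was at 3.84 ± 0.46 and 3.31 ± 0.47. Kcnab2, a cytoplasmic beta subunit, was at 1.99 ± 0.22 and 2.35 ± 0.20. Their log2 fold changes were 0.14, -0.19 and 0.19, and the groups overlapped in each case.

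Two-pore-domain channels carry the background potassium current that sets the resting voltage, and 3 of their 13 genes were tested. Kcnk2 encodes a channel of this class that is opened by membrane stretch, heat and lipids. The controls held 5.35, 5.34 and 3.91 RPKM and the GSK101 libraries 6.77, 6.52 and 5.18, so the lowest GSK101 library overlapped the controls. Kcnk2 did not pass in the main test, with a log2 fold change of 0.31, a 95% interval from -0.0002 to 0.63 and an adjusted p of 0.117. With limma-voom on the reads recovered from the RPKM values it did pass (0.35, adjusted p = 0.0315, in a range of 0.0132 to 0.288 over the alternatives). Neither Kcnk12 nor Kcnk6 passed, at -0.03 (interval -0.23 to 0.17) and -0.30 (interval -0.64 to 0.04). The remaining 10, Kcnk1, Kcnk3, Kcnk4, Kcnk5, Kcnk7, Kcnk9, Kcnk10, Kcnk13, Kcnk15 and Kcnk18, each averaged under 0.1 RPKM.

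**Figure D4:**
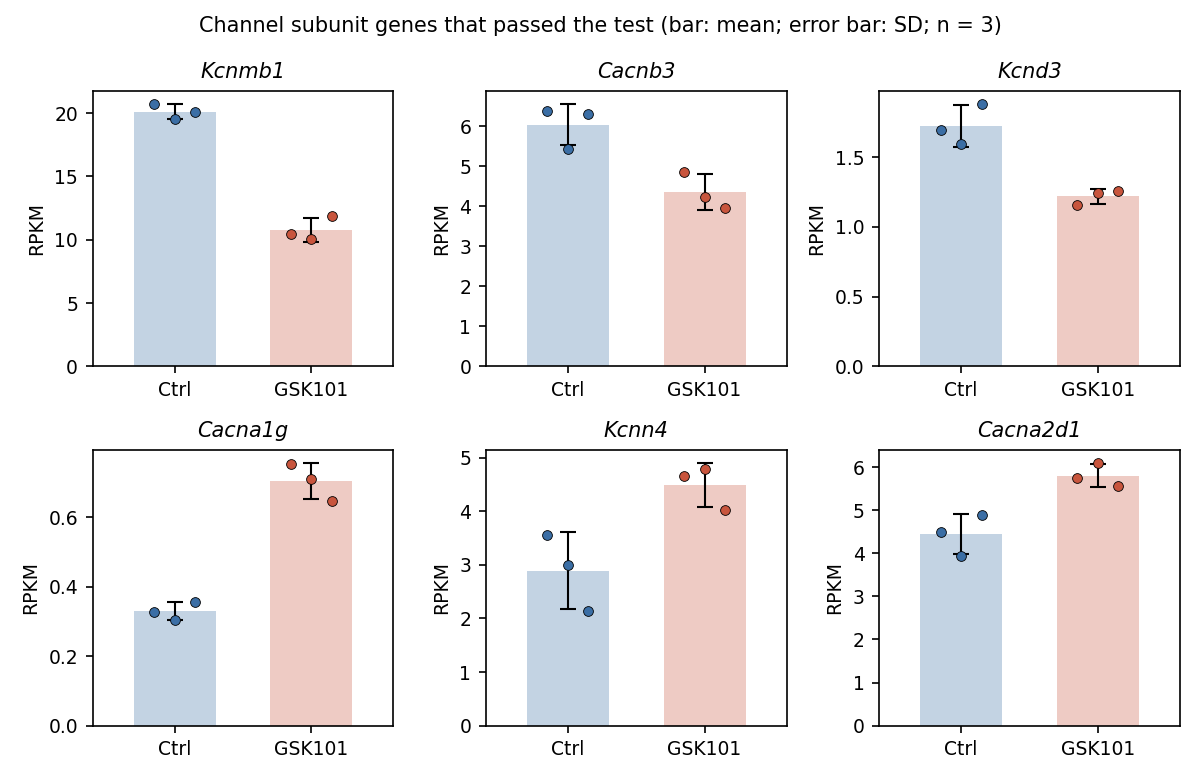
RPKM of the 6 channel subunit genes that passed the test, in the 3 Ctrl (blue) and 3 GSK101 (red) libraries; points are libraries, bars means and error bars SD, on axes that start at 0. Kcnmb1, Cacnb3 and Kcnd3 were lower and Cacna1g, Kcnn4 and Cacna2d1 higher with GSK101, without overlap between the groups.

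Of the 10 pore-forming calcium channel genes 3 were tested. The most abundant was Cacna1c, the pore of the L-type channel of heart and smooth muscle, on chromosome 4 from 150641066 to 150829913. Its values were 3.05, 2.73 and 2.73 RPKM in the controls and 2.98, 3.07 and 3.10 with GSK101. They overlapped, and the log2 fold change of 0.09 (95% interval -0.08 to 0.26, adjusted p = 0.381, limma) did not pass.

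Cacna1g, a pore of the low-voltage-activated T-type channel that opens near the resting voltage, had the largest ratio between the groups of the 6 called channel genes. It lies on chromosome 10 from 82129506 to 82197848. The controls held 0.328, 0.305 and 0.357 RPKM and the GSK101 libraries 0.752, 0.711 and 0.648. Each GSK101 value was well above each control value, at low levels that rested on 103 to 121 reads in the controls and 214 to 257 in the GSK101 libraries. The means were 0.330 ± 0.026 and 0.704 ± 0.053 (SD, n = 3), 2.13-fold higher. In limma the log2 change was 0.54, with an SE of 0.11 and an adjusted p of 0.00976. The pseudocount of 0.5 lies near these levels and shrinks that value, which ran from 0.36 to 1.09 over the alternatives. Without any filter on low values its adjusted p was 0.00627, in a range of 1.91e-05 to 0.0432 over the alternatives. That fit takes in the genes near 0, and its SE for Cacna1g was 0.07 at the same log2 change. The smaller adjusted p is thus no separate support. The other T-type genes, Cacna1h and Cacna1i, were below the filter. In Cacna1h the groups overlapped, on 2 to 6 reads. Cacna1i was higher in every GSK101 library, 0.0315, 0.101 and 0.104 against 0.123, 0.114 and 0.177 RPKM, on 10 to 53 reads (exact two-sided permutation p = 0.1, the smallest that 3 against 3 allows). Separate groups must give that p, and Cacna1i was named after its values were seen. Of all genes below the filter with at least 1 read, 9.73% were separate.

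Cacna1a, the P/Q-type pore of nerve terminals, was at 0.505 ± 0.035 and 0.483 ± 0.082 RPKM (SD, n = 3) and did not pass. Cacna1b and Cacna1d each averaged 0.152 RPKM, and Cacna1e, Cacna1f and Cacna1s, the last the pore of skeletal muscle, lay under 0.1.

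A pair of auxiliary subunits of calcium channels changed in opposite directions. Cacnb3 encodes a cytoplasmic beta subunit, which binds the pore and carries it to the surface. It lies on chromosome 7 from 140315368 to 140324902. Its values were 6.39, 5.45 and 6.30 RPKM in the controls and 4.86, 4.25 and 3.97 with GSK101, with every GSK101 library below every control. The gene fell 1.39-fold, from 6.05 ± 0.52 to 4.36 ± 0.46 (SD, n = 3). In limma the log2 change was -0.43, with an SE of 0.09 and an adjusted p of 0.00955. The other tested beta gene, Cacnb2, did not pass (0.15, interval -0.09 to 0.40), and Cacnb1 and Cacnb4 were below the filter at a mean of 0.317 and 0.020 RPKM.

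Cacna2d1 encodes an extracellular alpha2delta subunit, which raises the number of channels at the surface and is the target of gabapentin. It lies on chromosome 4 from 15710417 to 16130848. The controls held 4.49, 3.95 and 4.88 RPKM and the GSK101 libraries 5.74, 6.10 and 5.57, with no overlap. Cacna2d1 rose 1.31-fold, from 4.44 ± 0.47 to 5.80 ± 0.27 (SD, n = 3). In limma the log2 change was 0.35, with an SE of 0.08 and an adjusted p of 0.0139. Without GSK101 replicate 2 the adjusted p was 0.0518, in a range of 0.00124 to 0.0518.

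Cacna2d2, a second alpha2delta gene, was at 2.36, 2.15 and 2.03 RPKM in the controls and 1.90, 1.80 and 1.78 with GSK101. Every GSK101 value was lower, but the log2 fold change of -0.20 (95% interval -0.39 to -0.01) missed the threshold at an adjusted p of 0.097. It passed with limma-voom (adjusted p = 0.0374), quantile normalization (0.0398), without the mean-variance trend (0.0498) and with the gene length trend removed (0.0277), in a range of 0.0277 to 0.239. Cacna2d4 did not pass (-0.04, interval -0.32 to 0.24).

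The ratios of these subunits within a library differed between the groups. The ratio of Cacnb3 to Cacna1c was 2.10, 1.99 and 2.31 in the controls and 1.63, 1.38 and 1.28 with GSK101, and that of Cacna2d1 to Cacna1c was 1.47, 1.45 and 1.79 against 1.93, 1.99 and 1.80. In the controls Cacnb3 had the higher RPKM of both auxiliary subunits in all 3 libraries, with Cacna2d1 at 0.703 to 0.774 of its level. In the GSK101 libraries Cacna2d1 had, at 1.18 to 1.44 of it. The order in the controls rests on the deposited gene lengths, since by reads Cacna2d1 was the higher there too (706 to 876 against 604 to 737). Ctrl and GSK101 libraries were separate in each of the 3 ratios, each with an exact two-sided permutation p of 0.1, the smallest possible here. For Cacna2d1 to Cacnb3 that outcome was fixed, since each gene was separate and in opposite directions. For Cacna2d1 to Cacna1c the separation was narrow, 1.790 in Ctrl replicate 3 against 1.798 in GSK101 replicate 3. The ratios are thus no support beyond the calls of the genes. These ratios were chosen after the values of the genes had been seen.

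**Figure D5:**
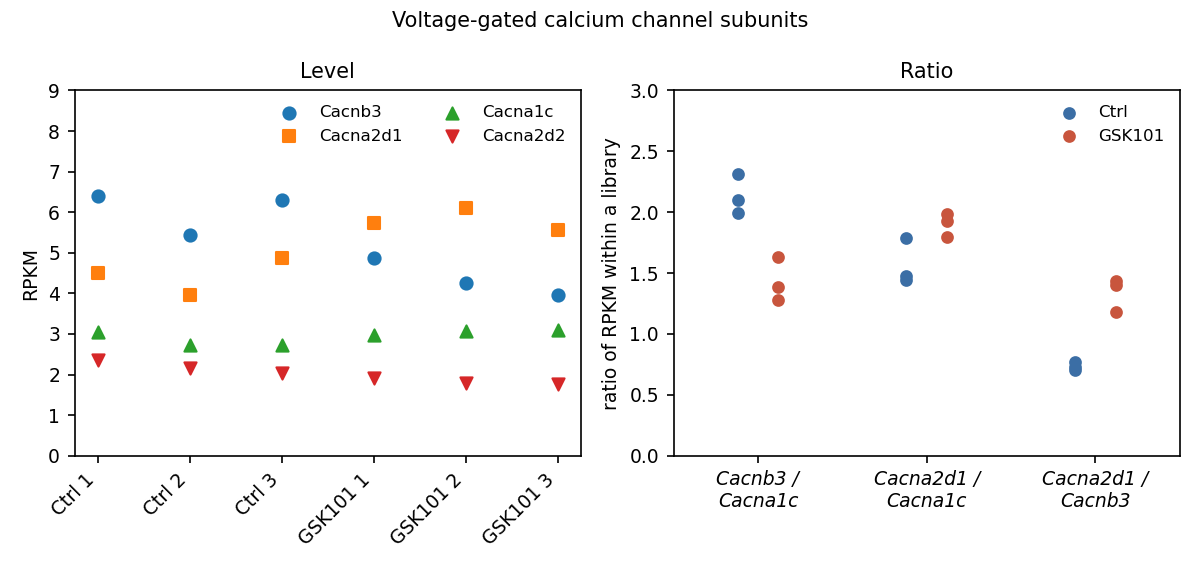
Left, RPKM of 4 voltage-gated calcium channel subunit genes in each of the 6 libraries; right, ratios of RPKM within each library for 3 pairs of subunits, Ctrl in blue and GSK101 in red. Cacnb3 lay above Cacna2d1 in the 3 Ctrl libraries and below it in the 3 GSK101 libraries.

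The 86 channel genes below the filter held at most 0.657 RPKM in any library. None of the 13 inward rectifier genes was tested. The 6 of them at a mean of 0.1 RPKM or more were Kcnj14, Kcnj2, Kcnj9, Kcnj13, Kcnj10 and Kcnj15, and the 7 under 0.1 were Kcnj4, Kcnj16, Kcnj8, Kcnj12, Kcnj3, Kcnj11 and Kcnj5. Of the voltage-gated pores below the filter, Kcng1, Kcns3 and Kcna4 averaged 0.155 to 0.258 RPKM. Among the 25 that averaged under 0.1 were Kcna1, Kcna2, Kcna3, Kcna5, Kcna6, Kcna7, Kcnb2, Kcnc1, Kcnc2, Kcnc4, Kcnf1, Kcng2, Kcng4, Kcnh1, Kcnh2, Kcnh4, Kcnh6, Kcnh8, Kcnq1, Kcnq3, Kcns2 and Kcnv1. Of the auxiliary potassium channel genes, Kcnrg, Kcne3, Kcne2, Kcnab3 and Kcnab1 averaged 0.126 to 0.247 RPKM, and Kcnip1, Kcnip2, Kcnip4 and Kcne5 under 0.1. The calcium gamma genes Cacng1, Cacng2, Cacng3 and Cacng4 were under 0.1 and Cacng7 at 0.270, and the alpha2delta gene Cacna2d3 was at 0.059.

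For 10 of these 86 genes, 11.6%, the groups did not overlap, against 9.73% of the 7874 genes of the table below the filter with at least 1 read, so the share was near the background. Values were higher in every GSK101 library for 6 of them, Kcnj2, Kcnj15, Kcng2, Kcnt1, Cacna1i and Cacna2d3, and lower for 4, Kcnj4, Kcnh2, Kcng4 and Kcnb2. Kcnj2, which encodes the classical strong inward rectifier that holds the resting potential, was at 0.182, 0.244 and 0.243 RPKM in the controls and 0.415, 0.657 and 0.277 with GSK101, on 14 to 18 and 20 to 50 reads. Kcnj15, another inward rectifier gene, was at 0.059, 0.031 and 0.076 against 0.181, 0.297 and 0.125, on 2 to 5 and 8 to 20 reads. In both, GSK101 replicate 2 was highest. Kcng4, a silent modifier of voltage-gated channels, was at 0.065, 0.067 and 0.067 against 0.011, 0.011 and 0.023, on 12 and 2 to 4 reads, and was the 1 gene of these that passed limma when no filter was applied (adjusted p = 0.0343). Kcnj2, Kcnj15 and Kcng4 each had an exact two-sided permutation p of 0.1, as separate groups of 3 must, and were named after their values were seen.

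Of 22 listed genes for proteins that work with these channels 18 were in the file and 10 were tested. Of these 1 rose and none fell, against 20.1% higher and 11.9% lower of all tested genes. Sestd1, a phospholipid-binding scaffold, rose by 0.21 on the log2 scale (adjusted p = 0.00917, limma). Calm2, a gene of the calmodulin that gates Kcnn4 channels, was at 1594 ± 19.9 RPKM in the controls (SD, n = 3) and did not pass, at a log2 change of 0.02. Its 7 deposited exon coordinates run from 65506874 to 124225292, so this level may pool more than 1 locus, which was not tested. Of the RGK family, small G proteins that inhibit calcium channels by binding the beta subunit, Rrad, Rem1 and Gem did not pass. Rem2 was below the filter at 0.073, 0.126 and 0.113 RPKM in the controls and 0.347, 0.293 and 0.282 with GSK101, on 6 to 10 and 22 to 28 reads (exact two-sided permutation p = 0.1), and was named after its values were seen.

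Of 38 listed genes of other ion transport that sets the membrane potential, 36 were in the file and 20 were tested. Of these 5 rose and 1 fell, a share near that of all tested genes (20.1% higher and 11.9% lower). Atp1b1, a beta subunit of the sodium pump, rose 1.52-fold from 11.7 ± 0.92 to 17.9 ± 0.73 RPKM (SD, n = 3, adjusted p = 0.000745, limma). Slc12a2, a cotransporter that carries sodium, potassium and chloride into the cell, rose 1.40-fold from 10.1 ± 0.38 to 14.2 ± 0.58 (adjusted p = 0.000823). The FXYD regulators of the sodium pump were split: Fxyd2 rose 1.40-fold and Fxyd5 1.11-fold, and Fxyd1 fell by 0.57 on the log2 scale. Scn2b, an auxiliary sodium channel subunit, rose 1.66-fold at a low level of 0.497 RPKM in the controls. Scn2b and Fxyd5 lost their call in 11 of 17 and 7 of 18 alternatives, with adjusted p from 0.0244 to 0.153 and from 0.00929 to 0.12, and Fxyd2 without GSK101 replicate 2 (adjusted p = 0.0512, in a range of 0.00489 to 0.0512).

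The cells carried transcripts of fibrous tissue, with Col1a1 at 1903 and Fn1 at 887 RPKM in the controls. Of 5 tested fibroblast and disc cell markers 4 were called higher and none lower, and Col1a1 did not pass at a log2 change of -0.22. Of the chondrocyte list Acan, the cartilage proteoglycan aggrecan, was at 33.6 and Sox9, a regulator of chondrocyte identity, at 2.80 RPKM in the controls. Both were tested and did not pass, and Col2a1, the collagen of hyaline cartilage, was at 0.016. Markers of excitable cells, in which many of these channels are best known, were mixed. Of the neuronal list Tubb3 fell, and Snap25, Stmn2 and Gap43 were tested and did not pass, with summed levels of the 6 listed of 20.3 to 20.9 RPKM against 18.2 to 19.9. Rbfox3 was at 0.056 and 0.075. Of the Schwann cell and glial list S100b rose and Sox10 was at 0.064 and 0.077. Of 4 tested skeletal muscle markers 3 fell, and Tnnt3 did not pass at a log2 change of 0.16. Myh3, 1 of the 3, reached 0.5 RPKM only in the control libraries, so it entered the test through the group in which it was high. Myog held 0 reads in each control library. In the endothelial list Kdr rose and was the 1 tested gene, and Cdh5 was at 0.033 and 0.008. Beside these counts, 20.1% of all tested genes were higher and 11.9% lower. The part of these lists in the results for channel genes was not tested.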

How the data were processed

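Polyadenylated RNA of the 6 libraries was made into stranded libraries with molecular identifiers of 8 bases and sequenced in pairs, per the labels' protocols. The authors deposited RPKM values for 20675 genes with exon coordinates. Tools listed without role or order, per the submitters' processing notes, are STAR 2.5.3a, Trimmomatic 0.36, Subread 1.5.1 with featureCounts, and edgeR 3.12.1, on build Rnor_6.0. No source used here says whether identifiers were collapsed or strand was used. The exons of the 19 tested channel genes overlapped no other gene of the table. RPKM times gene length gave whole reads to within 0.01 for 100% of values. These summed to 43061102 to 45705238 reads per library, and even totals made up 71.3% to 74.7% of genes holding 1 to 10 reads. Whether both mates of a pair were counted was not tested, so the low read numbers given here may stand for fewer RNA fragments.

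The main test was limma 3.58.1 (R 4.3.3) on log2(RPKM + 0.5) over all 12801 genes with 0.5 RPKM or more in at least 3 libraries, with group as the term, a mean-variance trend and Benjamini-Hochberg adjustment. It was tested on simulated data. Fold changes on this scale understate low genes. Genes below the filter were given by level, with an exact permutation test where values of every library are printed. Alternatives covered pseudocount, filter, scaling, variance model, gene length (loess, span 0.3), a replicate block and leaving out each library. Values in every library are given for called channel genes with a ratio of means of at least 1.3 and the top tested gene of each role, and for others chosen after their values were seen. Called partner genes are named. Members and lists were chosen with earlier results of these data known. Listed genes not found in the file were not analysed here, and some genes are not reported here.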

Additional observations from a re-analysis of the deposited data

How the results depend on the processing

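Kcnmb1 and Cacnb3 kept their direction and their call in every alternative, with log2 fold changes of -0.94 to -0.82 and -0.51 to -0.37. Cacna1g kept both where it was tested, at 0.36 to 1.09, but the stricter filter left it out. It had entered through its GSK101 libraries. The settings that left out a library kept the main filter, so its calls there share that selection. Kcnn4 lost its call in 4 of 18 alternatives, Kcnd3 in 2 and Cacna2d1 in 1, each in the same direction. The number of channel genes called higher fell to 1 without GSK101 replicate 2 and was 1 to 3 over the 6 settings that left out a library, and the number called lower was 2 to 3. Over all genes those settings gave 1835 to 2295 higher and 1055 to 1294 lower. Of the 13 channel genes that had not passed, 5 changed sign near 0, and none of these 5 passed in any alternative. Leaving out a library gave -0.14 to 0.034 for Cacna2d4, -0.071 to 0.037 for Cacna1a, -0.069 to 0.016 for Kcnk12 and -0.15 to 0.052 for Kcnd1. Removing the gene length trend gave -0.064 for Cacna1c and 0.0060 for Kcnk12, and TPM gave 0.0056 for Kcnd1; the cause was not tested. With the replicate number as a block 4 channel genes were higher, Kcnk2 added (adjusted p = 0.0132, limma), and 3 lower. Over all tested genes same-numbered libraries did not deviate together (correlations 0.05, -0.06 and 0.05), and 2 of the 6 libraries correlated best with their own number. The labels do not say what a shared number means, so these correlations cannot decide whether libraries were paired. With 3 libraries a group, no exact permutation test could go below 0.1. The 64 channel genes under 0.1 RPKM gave too few reads for any but large differences to be detectable, and intervals cover these libraries only.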
